A study of Drosophila melanogaster with 4 samples.

Results

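The Hox genes of Drosophila melanogaster lie in the Antennapedia complex, which holds lab, pb, Dfd, Scr and Antp, and the bithorax complex, which holds Ubx, abd-A and Abd-B. All 8 genes are on chromosome arm 3R. The complexes were taken by position alone, as the windows 3R:2480000-2830000 and 3R:12480000-12800000 of the FlyBase r5 assembly. Regions enriched in histone H4 that overlapped these windows numbered 87 of 15405 in the list of replicate 1, 60 of 12952 in the list of replicate 2 and 159 of 22525 in a combined list of the replicate set. Approximate bounds of their own were at hand for 4 genes: Antp from 2723600 to 2825000, Ubx from 12482300 to 12560100, abd-A from 12632900 to 12655800 and Abd-B from 12752900 to 12798000. The other 4 genes are described through the stretch of 244 kb below Antp that they share. The RefSeq gene table at hand, on Release 6, gives the order along this side of the arm as lab, pb, zen2, zen, bcd, Ama, Dfd, Scr, ftz and Antp. Its coordinates belong to another build, so lab, pb, Dfd and Scr were not placed singly.

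Hox genes encode homeodomain transcription factors that give the segments of the body their identity. Their order on the chromosome follows the order in which they act from head to tail. Their transcription is kept on or off over development by Trithorax group and Polycomb group proteins, which act on chromatin through response elements spread over long regulatory DNA. Histone H4 is a core subunit of every nucleosome, so a region called as enriched in H4 does not mark a particular histone modification. Such a region is taken here as DNA recovered with nucleosomes above its input, though how the regions were called is not stated.

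The material was whole embryos of the wild-type strain Oregon-R, at the stage of 14 to 16 h and crosslinked with 1.8% formaldehyde. H4 ChIP was done in 2 libraries, and each had an input of genomic DNA with the same number as its control. All values are averages over the cell types of the embryo, many of which do not express a given Hox gene. The files hold called regions with a score and no read counts, so the sequencing depth behind each region is unknown and no counting interval is given. Nothing in the labels tells whether separate collections of embryos were used for the replicates, so their spread may be technical. Replicate 2 had fewer regions and covered less of 3R than replicate 1. No groups of samples were contrasted and no test was made: what follows describes these lists.

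Both complexes held little H4-enriched sequence for their length. In the Antennapedia complex, 19.1% of the bases lay in enriched regions in replicate 1 and 12.5% in replicate 2, a mean of 15.8 ± 4.67% (SD, n = 2). The bithorax complex had shares of 28.4% in replicate 1 and 19.5% in replicate 2, a mean of 23.9 ± 6.27% (SD, n = 2). The rest of 3R was covered to 37.6% in replicate 1 and 30.0% in replicate 2, a mean of 33.8 ± 5.38% (SD, n = 2). Within each replicate both complexes were below the rest of the arm. The ratio of the mean shares was 0.47 for the Antennapedia complex and 0.71 for the bithorax complex. The combined list covered more of everything, with 40.0% of the Antennapedia complex and 51.4% of the bithorax complex against 54.7% of the rest of 3R, and there the ratios were 0.73 and 0.94.

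**Figure D1:**
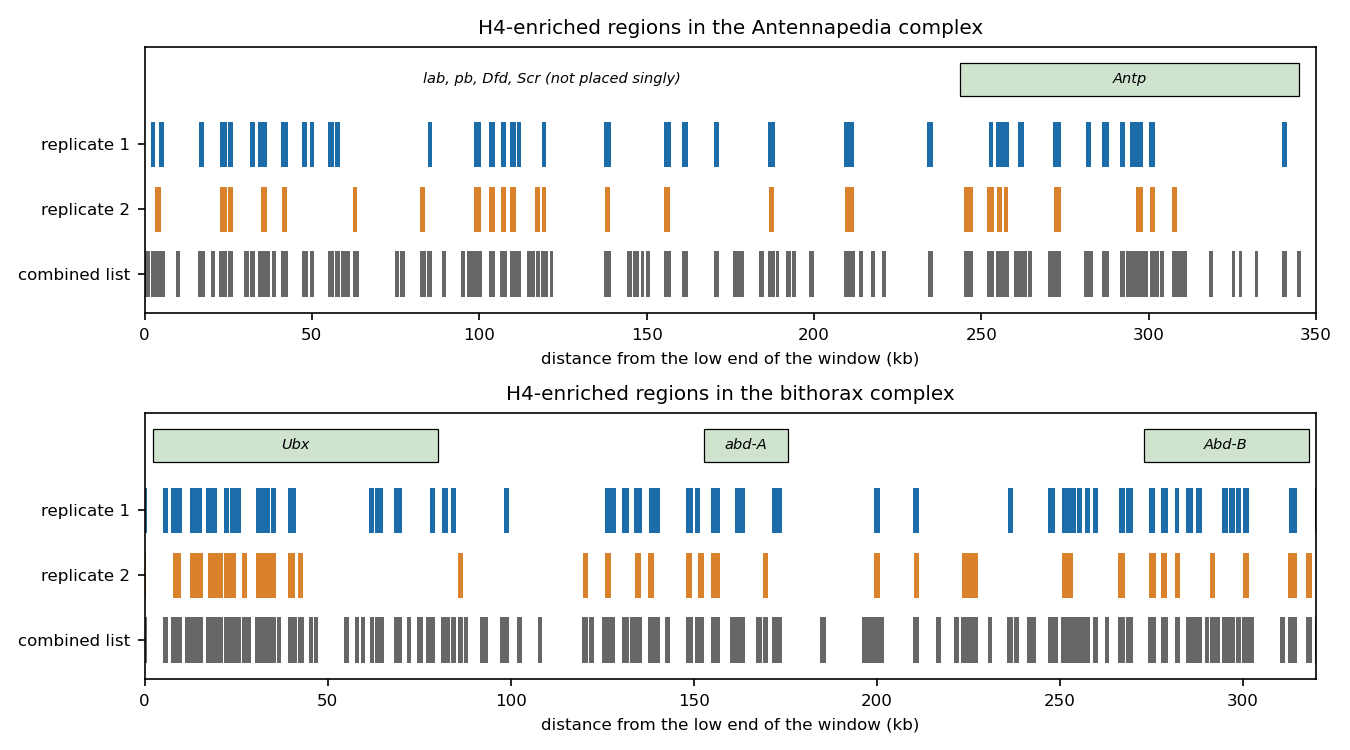
H4-enriched regions along the Antennapedia complex (top) and the bithorax complex (bottom), as blocks in the lists of replicate 1, replicate 2 and the combined list; the x axis is the distance from the low end of each window in kb, and boxes are the genes with bounds of their own. Regions are short and scattered, with the densest run in both replicates over the low-coordinate side of Ubx.

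The complexes were next set beside windows of the same size tiled along the rest of 3R. The Antennapedia complex, with its mean of 15.8%, lay above 4 of 75 windows of 350 kb, whose shares ran from 9.87% to 56.6% with a median of 34.0%. It lay above 4 of the 75 in replicate 1 and 3 of them in replicate 2. The bithorax complex, with its mean of 23.9%, lay above 15 of 83 windows of 320 kb, which ran from 11.7% to 56.9% with a median of 32.0%. It lay above 19 of the 83 in replicate 1 and 13 in replicate 2. In the combined list the Antennapedia complex stood above 10 of 75 windows and the bithorax complex above 34 of 83, close to the middle. The Antennapedia complex was thus low on the arm in every list, and the bithorax complex was low in the replicate lists only.

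**Figure D2:**
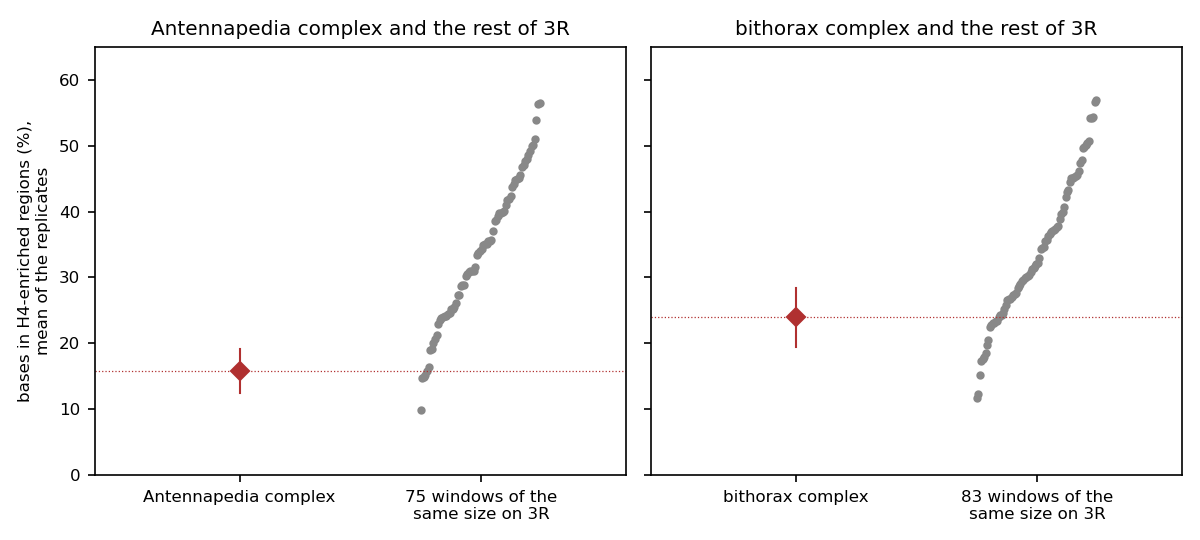
Share of bases in H4-enriched regions (%, mean of the replicates) in each complex (diamond, with a line joining the values of the 2 replicates) and in windows of the same size tiled over the rest of 3R (grey points, sorted by value). The dotted line carries the value of the complex across: 15.8% lies above 4 of 75 windows for the Antennapedia complex, and 23.9% above 15 of 83 for the bithorax complex.

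The combined list held many regions in the complexes, but narrow ones. The Antennapedia complex had 37 regions in replicate 1, 25 in replicate 2 and 82 in the combined list, and the bithorax complex had 50, 35 and 77. In the combined list these were 23.4 and 24.1 regions per 100 kb, against 19.8 in the rest of 3R. By that number the Antennapedia complex stood above 64 of 75 windows and the bithorax complex above 79 of 83. In the replicate lists the Antennapedia complex was low by number too, above 8 of 75 windows, while the bithorax complex was above 46 of 83. Counting regions in place of bases thus moved the bithorax complex from the low side of the arm to slightly above its middle.

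Median widths were 1674 bp and 1644.5 bp in replicate 1 in the Antennapedia and bithorax complexes, against 2013 bp in the rest of 3R. In replicate 2 they were 1637 bp and 1656 bp, against 1978 bp, and in the combined list 1506.5 bp and 1740 bp, against 1991 bp. Neither replicate had a region of 5 kb or more in either complex, whereas such regions made up 8.23% of those in the rest of 3R in replicate 1 and 6.20% in replicate 2. The widest region of either replicate list was 3664 bp in the Antennapedia complex and 3884 bp in the bithorax complex. Every one of the 75 and 83 windows of matching size held a wider one, at least 4106 bp, and their median was 8399 bp. In the combined list the widest regions were 4209 bp and 7985 bp, above 1 of 75 windows and 18 of 83. There regions of 5 kb or more were 0 of 82 in the Antennapedia complex and 3 of 77 (3.90%) in the bithorax complex, against 10.9% in the rest of 3R. In the replicate lists the widest region of each complex, as called, was thus narrower than that of every window compared. These widths depend on where neighbouring regions were split. In replicate 1 the widest region of the bithorax complex ended at 12734555, and the next ran from 12734588 to 12736096. Widths after merging within 100 bp were not computed, for the complexes or for the windows.

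Scores, which the authors gave to each region on a scale that is not stated, were compared only within a list. Their median in the Antennapedia complex was 0.53 in replicate 1 and 0.47 in replicate 2, against 0.55 and 0.57 in the rest of 3R. For the bithorax complex it was 0.51 in replicate 1 and 0.52 in replicate 2. Of the regions in the Antennapedia complex, 14 of 37 in replicate 1 and 4 of 25 in replicate 2 scored above the median of their whole list, or 37.8% and 16.0%. For the bithorax complex this was 17 of 50 and 5 of 35, or 34.0% and 14.3%. In the rest of 3R it was 43.1% in each replicate. The share of such regions was lower in the complexes in both replicates, by more in replicate 2. With the higher scoring 50% of each list alone, the mean covered share was 5.02% in the Antennapedia complex and 6.76% in the bithorax complex, against 20.1% in the rest of 3R, ratios of 0.25 and 0.34.

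The replicates also differed in what they marked in the complexes. In the Antennapedia complex, 49.5% of what replicate 1 marked and 75.7% of what replicate 2 marked was in both lists. The Jaccard index, the shared bases over all bases marked by either, was 42.7%. The lists of replicates 1 and 2 had 47.5% and 69.0% of their marked sequence in common in the bithorax complex, with an index of 39.1%. In the rest of 3R these values were 70.0%, 87.7% and 63.7%. Only 2 of 75 windows had a lower index than the Antennapedia complex, and none of 83 had a lower one than the bithorax complex (their lowest was 40.1%). Among the 15 windows covered no more than the bithorax complex the index ran from 41.5% to 75.2%, and none was lower than the complex. Their median was 57.3%, against 62.6% over all 83. Among the 4 covered no more than the Antennapedia complex it ran from 33.5% to 56.3%, and 1 was lower than the complex. Their median was 48.6%, against 62.3% over all 75. Whether the index moves with how much is covered was not tested.

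By number, 20 of the 37 regions of replicate 1 in the Antennapedia complex touched a region of replicate 2, and 20 of the 25 regions of replicate 2 touched one of replicate 1. For the bithorax complex this was 26 of 50 and 26 of 35. As shares these were 54.1% and 52.0% of the regions of replicate 1 and 80.0% and 74.3% of those of replicate 2, against 72.1% and 89.5% in the rest of 3R. Of the 82 combined regions in the Antennapedia complex, 19 touched a region of each replicate list, or 23.2%, and of the 77 in the bithorax complex 22 did, or 28.6%. Across the rest of 3R 45.9% of 5402 combined regions did. Among windows of the same size that were covered no more than the complex, the median of this share was 22.8% over the 4 windows for the Antennapedia complex, of which 2 were lower than it, and 32.6% over the 15 windows for the bithorax complex, of which 5 were lower. A further 41 regions of the Antennapedia complex and 27 of the bithorax complex touched neither replicate list, or 50.0% and 35.1%, against 30.5% in the rest of 3R. These regions had median widths of 1233 bp and 1298 bp, against 1280 bp for such regions in the rest of 3R. In the complexes 41 of the 159 combined regions (25.8%) were narrower than 1301 bp, the narrowest region of either replicate list on 3R. In the rest of 3R 17.5% were. How many regions would touch by chance was not computed.

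**Figure D3:**
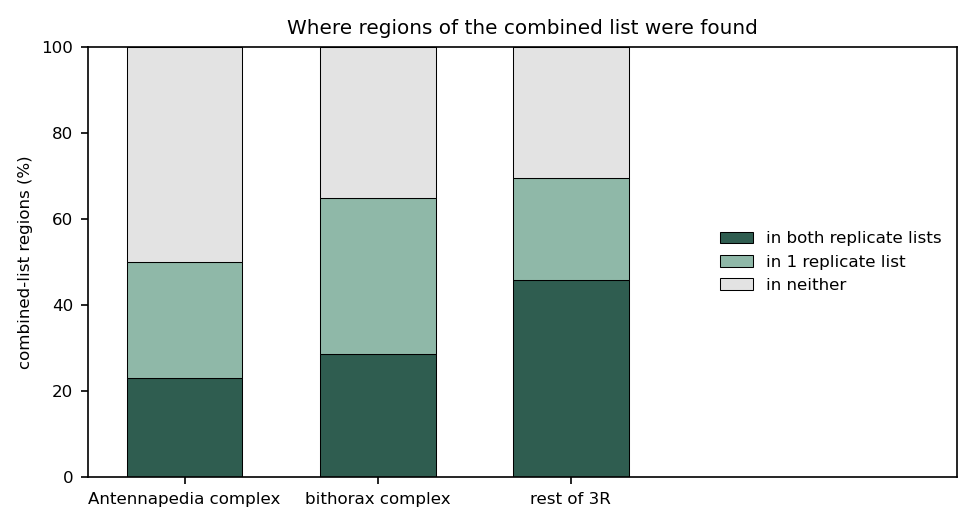
Share of combined-list regions (%) that touched a region in both replicate lists, in 1 of them or in neither, for the Antennapedia complex (82 regions), the bithorax complex (77) and the rest of 3R (5402). Regions found in both made up 23.2% and 28.6% in the complexes, against 45.9% in the rest of 3R.

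Gene by gene, the mean covered share of the replicates ran from 17.6% in Antp to 33.5% in Ubx, and it was 15.4% in the stretch below Antp. The stretch that holds lab, pb, Dfd and Scr, which pattern the head and the front of the thorax, was covered to 18.8% in replicate 1 and 12.0% in replicate 2. Antp, which specifies thoracic identity and gave the complex its name, was covered to 20.8% and 14.3%. Ubx, which sets the identity of the hind thorax and the first abdominal segment, was covered to 37.9% and 29.1%. For abd-A, which acts in the middle abdomen, the shares were 34.8% and 16.6%, and for Abd-B, which acts in the rear abdomen, 38.0% and 24.3%. Ubx and Abd-B were above the stretch below Antp and above Antp in both replicates. Keeping only the regions in the upper 50% of their list by score, this held for Ubx (mean 11.2%) but turned for Abd-B, which had 4.12% against 4.41% in the stretch below Antp and 6.74% in Antp. The ranges of Ubx, abd-A and Abd-B overlapped, as did those of Antp and the stretch below it.

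Against windows of their own length on 3R, each of these genes had more windows above it than below by its mean of the replicates. Antp (mean 17.6 ± 4.58%, SD, n = 2) stood above 44 of 267 windows, while Ubx (33.5 ± 6.23%) stood above 166 of 347, abd-A (25.7 ± 12.8%) above 472 of 1187 and Abd-B (31.1 ± 9.70%) above 278 of 601. Ubx and Abd-B were a little under the median of their windows, 34.5% and 32.8%. The stretch of lab, pb, Dfd and Scr (15.4 ± 4.80%) stood above 6 of 110. In replicate 1 alone Abd-B stood above 303 of 601. In the combined list Ubx stood above 217 of 347 windows and Abd-B above 319 of 601. There abd-A stood above 574 of 1187 and Antp above 70 of 267. The combined list covered Ubx (62.7%), abd-A (54.9%) and Abd-B (58.9%) more than the rest of 3R (54.7%), and Antp (43.9%) less.

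With all regions taken, the DNA between the bithorax genes was covered less than the genes. This DNA carries enhancers, insulators and response elements, the bxd and iab regulatory regions, that drive Ubx, abd-A and Abd-B segment by segment. Between Ubx and abd-A 23.6% of the bases were in regions in replicate 1 and 15.8% in replicate 2. Between abd-A and Abd-B the shares were 18.8% and 12.5%. Both stretches were below each of Ubx, abd-A and Abd-B in each replicate, though in replicate 2 abd-A (16.6%) was less than 1 percentage point above the first of them. Among regions in that upper 50% by score, the stretches had means of 4.62% and 4.83%, below Ubx (11.2%) and abd-A (10.5%) but above Abd-B (4.12%). By their means of 19.7 ± 5.46% and 15.6 ± 4.43% (SD, n = 2) they stood above 80 of 373 and 34 of 278 windows of their own length.

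**Figure D4:**
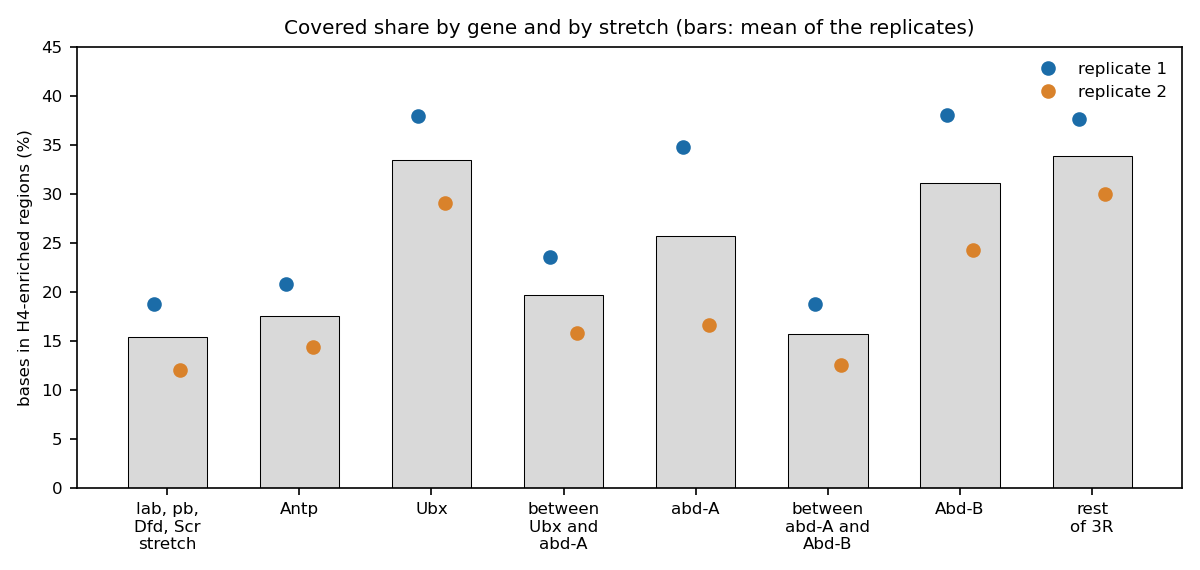
Share of bases in H4-enriched regions (%) in each Hox gene with bounds, in the stretches between and below them, and in the rest of 3R; bars are means and points are the 2 replicates. The stretch of lab, pb, Dfd and Scr, Antp and the stretches between the bithorax genes have means from 15.4% to 19.7%, Ubx and Abd-B 33.5% and 31.1%, and the rest of 3R 33.8%.

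Within the 4 genes with bounds, the side toward the end of transcription was covered more than the side toward the start, most clearly in Ubx. Antp, Ubx, abd-A and Abd-B are all read toward lower coordinates, as background knowledge, since the files and the gene table give no strand. Their upstream-most start is then at the upper bound; Antp and Abd-B have further promoters inside these bounds. The end-side 50% of Ubx was covered to 57.2% in replicate 1 and 54.8% in replicate 2, against 18.6% and 3.42% for its start-side 50%. For Antp the end side had 28.1% and 18.5% and the start side 13.6% and 10.2%. For abd-A the end side had 46.3% and 20.3% and the start side 23.2% and 13.0%. For Abd-B the end side had 43.7% and 27.9% and the start side 32.3% and 20.6%. The end side was the higher one for each of the 4 genes in each replicate, and the gap was widest in Ubx. In abd-A this rested on few regions. Its end side held the centres of 3 regions in replicate 1 and 1 in replicate 2, and its start side 1 in each. Counts were small in replicate 2 for Antp and Abd-B too. The end side of Antp held 5 centres there and its start side 3, and those of Abd-B held 4 and 2. This split was chosen after the values were seen, and how often other genes show it could not be counted, since no gene bounds of this build were used beyond these.

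Each gene was also divided into 5 equal parts, numbered from the start. Ubx was covered to 61.3% in replicate 1 and 69.3% in replicate 2 in part 4 and to 55.9% and 39.7% in part 5. Parts 1 and 2 of Ubx had 26.3% and 18.4% in replicate 1 and 0% each in replicate 2. Replicate 2 had no region in Ubx above 12523244, a stretch of 36.9 kb up to the start of the gene. In Antp the stretch from the start down to its nearest region inside the gene was 36.5 kb in replicate 2 and 3.62 kb in replicate 1. Parts 1 and 2 of Antp had 7.02% and 0% in replicate 1, and 0% and 7.41% in replicate 2. Part 3 of Antp had 44.7% in replicate 1 and 18.0% in replicate 2, and part 5 had 34.2% and 36.9%. Part 5 of abd-A (54.3% and 50.7%) and of Abd-B (46.9% and 45.1%) was much alike in the replicates. Several other parts of these shorter genes differed widely between the replicates, as part 1 of abd-A did with 58.1% in replicate 1 and 0% in replicate 2. In the combined list parts 1 and 5 were much alike in abd-A (57.6% and 55.5%) and in Abd-B (50.1% and 50.6%). They differed there in Antp (26.6% and 60.6%) and in Ubx (50.2% and 66.4%).

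**Figure D5:**
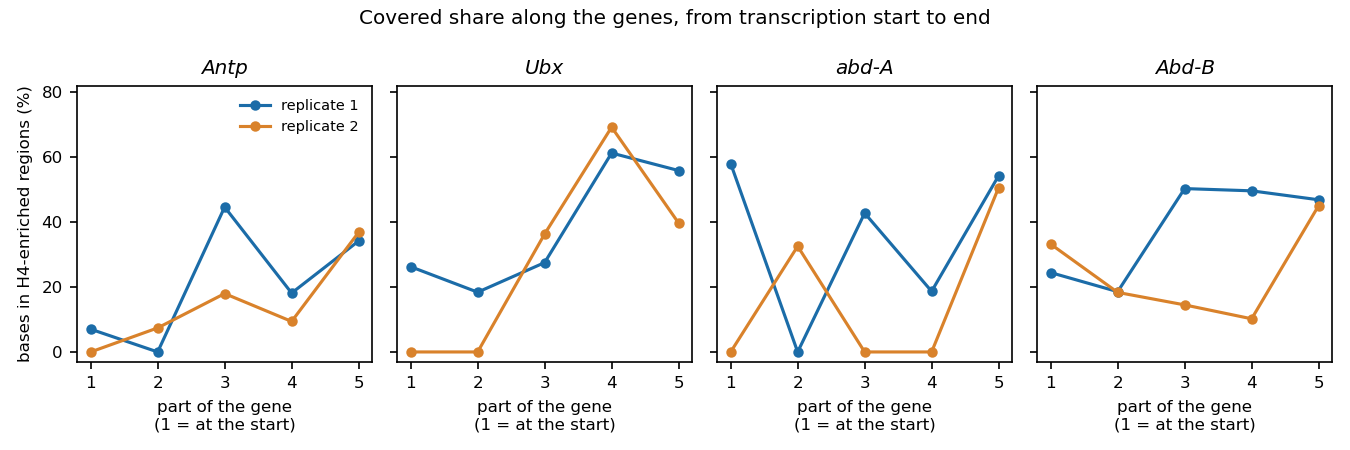
Share of bases in H4-enriched regions (%) in each of 5 equal parts of Antp, Ubx, abd-A and Abd-B, from the transcription start (1) to the end (5); the lines are the 2 replicates. In part 5 the replicates lie between 34.2% and 55.9% in all 4 genes, and parts 1 and 2 of Ubx and Antp are at 0% to 26.3%.

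Of the 4 gene starts, only that of Abd-B had sequence marked in each replicate within 5 kb either side. Within 5 kb either side of the start of Antp, 13.8% of the bases were in regions in replicate 1 and 0% in replicate 2. For Ubx this was 43.0% and 0%, for abd-A 26.6% and 0%, and for Abd-B 34.3% and 33.4%. Replicate 2 thus had no region within 5 kb of the start of Antp, Ubx or abd-A. The nearest one was 18.2 kb away for Antp, on the upstream side, 5.41 kb for Ubx and 5.45 kb for abd-A. Empty stretches of this size were common in replicate 2. It had no region in 22.6% of the 10 kb bins in the rest of 3R and in 34.3% of those in the complexes. How often the starts of other genes were empty was not counted. In replicate 1 the nearest regions were 3.62, 0.627 and 1.72 kb away. The start of Abd-B lay inside a region of replicate 2 and of the combined list, but 1.86 kb from the nearest one of replicate 1. The start of Antp also lay inside a region of the combined list, and those of Ubx and abd-A did not. Within 5 kb either side, the combined list covered 25.4% at Antp, 72.2% at Ubx, 26.4% at abd-A and 51.8% at Abd-B. The rest of 3R was covered to 54.7% in that list, to 37.6% in replicate 1 and to 30.0% in replicate 2. The bounds of the genes are approximate, and so are these distances. Within 2 kb either side, Abd-B had 3.40% in replicate 1 and 37.2% in replicate 2.

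Bins of 10 kb showed how sparsely the replicate lists marked the complexes. A bin counted as well covered where at least 50% of it was in regions in each replicate. Of the 35 bins of the Antennapedia complex none was, and of the 32 bins of the bithorax complex 2 were. In the rest of 3R 21.8% of 2721 bins were. Both of these bins were in Ubx, from 12490000 to 12499999 (64.2% in replicate 1 and 61.7% in replicate 2) and from 12510000 to 12519999 (57.9% and 59.7%). The bin between them had 45.3% and 59.3%, so these bins formed one run over the end side of the gene. Elsewhere in the bithorax complex the bin of highest mean, from 12730000 to 12739999 between abd-A and Abd-B, had 77.6% in replicate 1 and 31.3% in replicate 2.

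In the Antennapedia complex the fullest bin was in Antp, from 2730000 to 2739999, with 50.1% and 48.4%. Outside Antp the fullest was from 2580000 to 2589999, with 47.3% and 46.3%, followed by the next bin with 38.6% and 36.4%. Bins with no region in either replicate numbered 6 of 35 and 3 of 32 in the complexes, 13.4% in all, against 11.9% in the rest of 3R. Taken singly, replicate 1 had no region in 13 of the 67 bins of the complexes (19.4%), against 14.3% of the bins in the rest of 3R, and replicate 2 in 23 of 67 (34.3%), against 22.6%. In the combined list 0 of 67 bins were empty in the complexes, against 113 of 2721 (4.15%) in the rest of 3R. At that share few of 67 bins would be empty, so this difference says little.

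Single regions of the combined list that were found in both replicates marked a few points of each complex. In the Antennapedia complex the highest score, 0.62, belonged to a region of 3137 bp from 2689043 to 2692179, in the stretch below Antp. It was 97.0% covered in replicate 1 and 92.7% in replicate 2, with scores of 0.75 and 0.70 there. The next, from 2751549 to 2753853, was in Antp, where it scored 0.61 and was covered to 97.1% in replicate 1 and 82.8% in replicate 2. Next in score was a region from 2502334 to 2504785 near the low end of the window, which scored 0.57 and was covered to 96.8% and 82.3%. These 3 were chosen by score after their values were seen.

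The 5 longest regions of the Antennapedia complex were the one from 2689043 to 2692179, one at its low end from 2481789 to 2485997 (4209 bp, 69.8% in replicate 1 and 45.8% in replicate 2), and 3 in Antp. Those in Antp ran from 2739792 to 2743637 (3846 bp, 50.1% and 0%), from 2734489 to 2738202 (3714 bp, 98.7% and 76.7%) and from 2776063 to 2779710 (3648 bp, 62.0% and 59.6%). Replicate 2 thus held 4 of the 5 at least in part.

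The longest region of the bithorax complex, 7985 bp from 12730223 to 12738207, lay in the iab DNA between abd-A and Abd-B. It was covered to 84.4% in replicate 1, by 3 separate regions, and to 39.2% in replicate 2, by 1. The second, 7448 bp from 12473251 to 12480698, crossed the low edge of the window beyond the end of Ubx, with 84.2% and 82.9% covered, and it also had the highest score, 0.64. The other 3 were in the end-side 50% of Ubx, from 12510277 to 12516003 (5727 bp, 88.6% and 92.2%), from 12501684 to 12506414 (4731 bp, 95.7% and 66.1%) and from 12491180 to 12495879 (4700 bp, 69.6% and 74.4%). A shorter region at the end of abd-A, from 12634726 to 12637268, scored 0.62 and was covered to 97.3% and 91.2%; it was chosen after its value was seen.

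High scores in the combined list did not always stand on the replicates. The fourth and the fifth highest scores of the bithorax complex, 0.61 and 0.55, belonged to narrow regions between Ubx and abd-A, from 12587468 to 12588513 (1046 bp) and from 12581708 to 12583071 (1364 bp). Neither replicate list had a base in them. They were also chosen after their values were seen.

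The 3 longest stretches of the Antennapedia complex without any region of the combined list were all in the part that holds lab, pb, Dfd and Scr. They ran from 2602145 to 2617378 (15.2 kb), from 2701419 to 2713984 (12.6 kb) and from 2543959 to 2554958 (11.0 kb). In the bithorax complex they ran from 12588514 to 12599623 (11.1 kb, between Ubx and abd-A), from 12654086 to 12664502 (10.4 kb, across the start of abd-A) and from 12666184 to 12676112 (9.93 kb, between abd-A and Abd-B). The replicate lists had no region in 5 of these 6 stretches, and in the sixth, from 2701419, a region of replicate 1 reached in by 312 bp. Gaps of at least 10 kb were 3 of 81 in the Antennapedia complex and 2 of 76 in the bithorax complex (3.70% and 2.63%), against 178 of 5395 in the rest of 3R (3.30%), where the longest was 59527 bp. None of the 14 regions that the combined list named as depleted of H4 lay in either complex, and 2 of them were elsewhere on 3R. With only 2 on the arm, their absence from the complexes says little.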

How the data were processed

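The authors deposited 1 list of regions for each of 2 H4 ChIP libraries and a combined list. Bowtie 0.12.7 is named in the submitters' processing notes, and FlyBase r5 is the build per the file headers. What called the regions, at which threshold, and how the combined list was made is not given in the sources used here. Region bounds are other values than measurements, deposited as 1-based coordinates; the score of each region is the authors' own, on a scale that is not stated. No file of the 2 input libraries was used.

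Covered shares are bases of a window inside regions, clipped to it. Windows of the same size were tiled from the first base of 3R, leaving out those that touched a complex, and ranks among them are descriptions. Regions counted as touching with at least 1 shared base. Named regions are the 5 longest, and named gaps the 3 longest, of each complex in the combined list. The members, windows and lists were chosen with earlier results of these data known; the widths, the start and end sides of genes, the Jaccard index by window and the windows of gene length were added after values were seen. Alternatives were the higher scoring 50% of each list, a minimum width of 2000 bp, merging within 100 bp, shifted windows, bins of 5 kb, flanks of 2 kb, the combined list and each replicate alone. Interval arithmetic was checked on simulated lists. Python 3.11.15 and NumPy 2.4.6 were used.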

Additional observations from a re-analysis of the deposited data

How the results depend on the processing

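Both complexes stayed below the rest of 3R in covered share under every setting tried, but sizes and ranks moved. The share of the Antennapedia complex was 5.02% with the higher scoring 50% of each list, 5.19% with regions of at least 2000 bp, 40.0% in the combined list and 12.5% to 19.1% in single replicates; that of the bithorax complex was 6.76%, 9.89%, 51.4% and 19.5% to 28.4%. The percentage of same-size windows below the Antennapedia complex, 5.33%, was 4% with shifted windows, 1.33% with the higher scoring 50%, 13.3% in the combined list, 10.7% by number of regions and 4% to 5.33% in single replicates. For the bithorax complex, 18.1%, it was 20.7% with shifted windows, 2.41% with the higher scoring 50%, 41.0% in the combined list, 55.4% by number of regions and 15.7% to 22.9% in single replicates. Combined regions of both complexes found in both replicates, 41 of 159, fell to 4 of 47 with the higher scoring 50% (1011 of 2355 in the rest of 3R). Well covered bins, 2.99% of both complexes, were 5.97% at 5 kb (23.6% in the rest of 3R) and 0% with the higher scoring 50% (10.9%). The cause of these shifts was not tested. Depth is unknown, so what it limits was not measured.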

Other observations

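The complexes were also set beside the windows of the same size that adjoin them, chosen after the values above were seen. The Antennapedia complex, at a mean of 15.8%, was below both neighbours, which were covered to 26.2% on the low side and 26.9% on the high side. The bithorax complex, at 23.9%, was below its neighbours too, with 45.2% on the low side and 27.7% on the high side. The order held in each replicate: the neighbours of the Antennapedia complex had 30.2% on both sides in replicate 1 and 22.2% and 23.6% in replicate 2, and those of the bithorax complex had 49.7% and 30.3% in replicate 1 and 40.8% and 25.1% in replicate 2. In the combined list the bithorax complex, at 51.4%, was above its high-side neighbour, at 42.3%.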
